A study of Homo sapiens with 11 samples.

Results

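Imprinted genes are transcribed mainly from 1 parental copy, and 36 gene symbols of this kind were followed in HCT116 cells, a long-established line from a human colorectal carcinoma. The symbols were taken from a list of known imprinted genes and matched to the gene names of the deposited expression table, which holds 58699 genes. Their choice was made with earlier results of these data known. All 36 were found, under 37 gene identifiers, because IGF2 has a further identifier that was listed at 0 in every group. The cells had been transfected with a control siRNA (siLuc, which targets luciferase) or with one that targets Staufen1 (siStau1), a protein that binds double-stranded RNA. They were treated with decitabine (DAC), an analog of deoxycytidine that traps DNA methyltransferases, or with DMSO as the control. The protocol in the labels gives decitabine as 500 nM over 5 days. The 4 combinations of siRNA and drug were each sequenced as total RNA in 2 libraries. All groups are of this cell line and all carry an siRNA, so cells without one were not analysed here.

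Which parental copy of an imprinted gene is silent is set by methylation that is laid down differently in egg and sperm, at stretches called imprinting control regions. The maintenance methyltransferase DNMT1 copies these marks at each cell division, and zinc finger proteins such as ZFP57 protect them in the early embryo. Many imprinted genes act on growth, with IGF2 promoting it and CDKN1C, GRB10 and PHLDA2 restraining it. Others are long noncoding RNAs, such as H19, MEG3 and KCNQ1OT1, that lie in the same clusters as the coding genes. In colorectal and other tumours these marks can be lost or can spread to both copies.

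The table gives 1 FPKM value (fragments scaled to transcript length and to the fragments sequenced) per gene and group, with no value per library. No spread between replicates can therefore be given, and how deeply each library was sequenced is unknown. A gene is called changed here where the q-value in the authors' deposited table, which is their test adjusted for multiple comparisons, was under 0.05. Sizes are log2 ratios of FPKM after 0.1 was added to both values, so that changes of low genes are understated. Where 4 FPKM values follow each other without labels, the first pair is siLuc with DMSO and with DAC, and the other pair is siStau1 with DMSO and with DAC. Nothing in the labels says that the 2 libraries of a group came from separate cultures, so the authors' tests may measure a technical spread. Total RNA does not show which parental copy a transcript came from, and genes with several promoters, such as GNAS, GRB10, MEST and PLAGL1, are given as 1 summed value.

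STAU1, the targeted gene, had 35.5 and 33.7 FPKM in siLuc and 29.98 and 27.1 in siStau1, with DMSO and DAC in each case. Its mRNA was thus lower in siStau1 but was not called, with q-values of 0.767 and 0.685 in the authors' deposited table, so the groups are named by their labels. Of 7 colorectal epithelial markers, 6 were at 1 FPKM or more in every group, and VIL1 was below it throughout. Among 3 leukocyte markers CD68 alone reached 1 FPKM, with 1.498 in siLuc DMSO and 17.1 in siLuc DAC, and among 4 fibroblast markers COL1A1 alone did, with 1.59 and 8.60. PTPRC was listed at 0 in both DMSO groups. The summed FPKM of the leukocyte markers went from 1.498 to 17.6 with DAC in siLuc and from 0.639 to 7.67 in siStau1. That of the fibroblast markers went from 1.74 to 10.3 and from 1.20 to 6.38, and that of the 3 endothelial markers from 0.139 to 1.38 and from 0.0666 to 1.57. The sum of the epithelial markers rose as well, from 2601 to 8198 in siLuc and from 2149 to 5936 in siStau1. Within that list EPCAM was lower with DAC, at 259, 117, 338 and 179 FPKM. The part of these shifts in the results on imprinted genes was not tested. In bulk RNA, more cells that express a gene and more of its RNA per cell cannot be told apart. Log2 ratios in this series moved with how rich in GC a transcript is. Over protein-coding genes (genes are no independent replicates) Spearman's rho for the response to DAC was 0.659 in siLuc cells and 0.624 in siStau1 cells. For the knockdown it was −0.487 with DMSO and −0.715 with DAC. Each ratio was therefore also centred on the median of protein-coding genes of like GC content, and the centred value is given where it moves the ratio of a called gene by over 1.5 times.

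The sequences just before the transcription start of 7 members are shown first. Decitabine traps the enzymes that methylate CpG pairs, and these members had higher, like and lower levels with DAC. RefSeq promoters on the GRCh38.p14 build matched 22 of the 36 symbols. For each, the 250 bases before the start nearest the annotated gene's 5′ end were read, 5′ to 3′ on the gene's strand, with every CG pair in capitals. For MEG3 and DIRAS3 the stretch lies wholly inside the span of the gene in the annotation of the table. The stretches of H19, NDN and GRB10 overlap that span in part. H19 (chr11:2001267-2001516, minus strand), MEG3 (chr14:100825858-100826107, plus strand) and NDN (chr15:23687306-23687555, minus strand) were near 0 FPKM with DMSO and higher with DAC. IGF2R (chr6:159968832-159969081, plus strand) and GRB10 (chr7:50793454-50793703, minus strand) were already transcribed and rose in both arms. UBE3A (chr15:25439057-25439306, minus strand) was not called in any comparison, and neither was DIRAS3 (chr1:68050628-68050877, minus strand), which had lower levels with DAC.
H19: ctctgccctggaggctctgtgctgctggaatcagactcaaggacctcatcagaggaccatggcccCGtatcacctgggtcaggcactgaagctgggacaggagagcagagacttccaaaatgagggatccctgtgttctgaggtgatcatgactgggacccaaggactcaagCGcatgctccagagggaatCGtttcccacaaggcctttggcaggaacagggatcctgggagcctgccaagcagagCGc
MEG3: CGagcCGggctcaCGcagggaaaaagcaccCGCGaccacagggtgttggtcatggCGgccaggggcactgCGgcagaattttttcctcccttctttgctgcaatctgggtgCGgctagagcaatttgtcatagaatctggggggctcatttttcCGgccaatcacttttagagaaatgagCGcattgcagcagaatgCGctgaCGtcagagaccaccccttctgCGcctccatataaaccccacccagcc
NDN: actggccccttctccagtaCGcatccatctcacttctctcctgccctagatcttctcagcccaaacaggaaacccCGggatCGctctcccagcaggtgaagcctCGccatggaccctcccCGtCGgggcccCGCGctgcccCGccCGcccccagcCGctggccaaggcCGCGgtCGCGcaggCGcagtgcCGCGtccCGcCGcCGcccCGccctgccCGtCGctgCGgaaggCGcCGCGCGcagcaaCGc
IGF2R: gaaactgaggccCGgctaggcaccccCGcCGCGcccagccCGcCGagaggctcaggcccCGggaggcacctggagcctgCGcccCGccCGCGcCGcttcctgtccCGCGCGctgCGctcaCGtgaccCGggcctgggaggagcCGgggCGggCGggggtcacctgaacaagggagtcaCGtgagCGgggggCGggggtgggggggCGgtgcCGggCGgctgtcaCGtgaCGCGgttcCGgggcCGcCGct
GRB10: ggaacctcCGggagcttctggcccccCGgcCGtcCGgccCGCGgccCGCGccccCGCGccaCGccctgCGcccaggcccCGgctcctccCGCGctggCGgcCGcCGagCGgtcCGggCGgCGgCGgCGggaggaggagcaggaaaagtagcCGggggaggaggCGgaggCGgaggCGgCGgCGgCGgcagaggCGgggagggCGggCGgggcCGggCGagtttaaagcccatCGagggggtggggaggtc
UBE3A: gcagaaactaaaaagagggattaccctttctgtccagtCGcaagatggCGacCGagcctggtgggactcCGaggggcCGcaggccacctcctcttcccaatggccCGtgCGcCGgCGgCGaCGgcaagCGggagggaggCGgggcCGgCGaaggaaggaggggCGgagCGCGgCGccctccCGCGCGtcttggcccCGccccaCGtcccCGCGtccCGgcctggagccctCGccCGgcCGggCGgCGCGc
DIRAS3: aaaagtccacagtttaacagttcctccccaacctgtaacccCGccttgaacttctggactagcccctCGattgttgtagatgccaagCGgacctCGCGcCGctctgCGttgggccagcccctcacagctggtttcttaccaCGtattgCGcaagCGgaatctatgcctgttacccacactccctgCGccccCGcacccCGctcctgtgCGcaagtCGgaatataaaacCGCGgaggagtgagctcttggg

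The CG pair, searched as CG (the same letters on both strands), occurred 4 times in the H19 stretch, 13 times in MEG3, 30 times in NDN, 33 times in IGF2R, 37 times in GRB10, 33 times in UBE3A and 17 times in DIRAS3. The median was 16.5 over the 22 members and 11 over all 35116 promoters of the same table. At least 10 CG pairs were found in 18 of the 22 members (81.8%) and in 52.2% of all promoters. Whether CG number goes with the response to DAC was not tested. H19, with the fewest of the 22, and GRB10, with the most, were both called with DAC in siLuc. IGF2R was called as well, and UBE3A, with as many CG pairs, was not. Whether these stretches overlap imprinting control regions was not examined, and methylation itself was not analysed here.

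At baseline, in siLuc DMSO, 20 of the 36 members had at least 1 FPKM. GNAS, which encodes the alpha subunit of the stimulatory G protein, was highest at 221 FPKM. It was followed by the ubiquitin ligase gene UBE3A at 30.8, MEST, which encodes a hydrolase-like protein, at 21.7, PHLDA2 at 19.3 and BLCAP at 18.9. At the other end stood 9 members, listed at 0: MEG3, DLK1, PEG3, SNRPN, SNURF, NDN, MAGEL2, NNAT and ZIM2. Of these, 6 were listed at 0 in siStau1 DMSO as well, while MEG3, DLK1 and PEG3 had between 0.0218 and 0.0912 FPKM there. In all, 26 members reached 1 FPKM in at least 1 group and 10 did not.

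**Figure D1:**
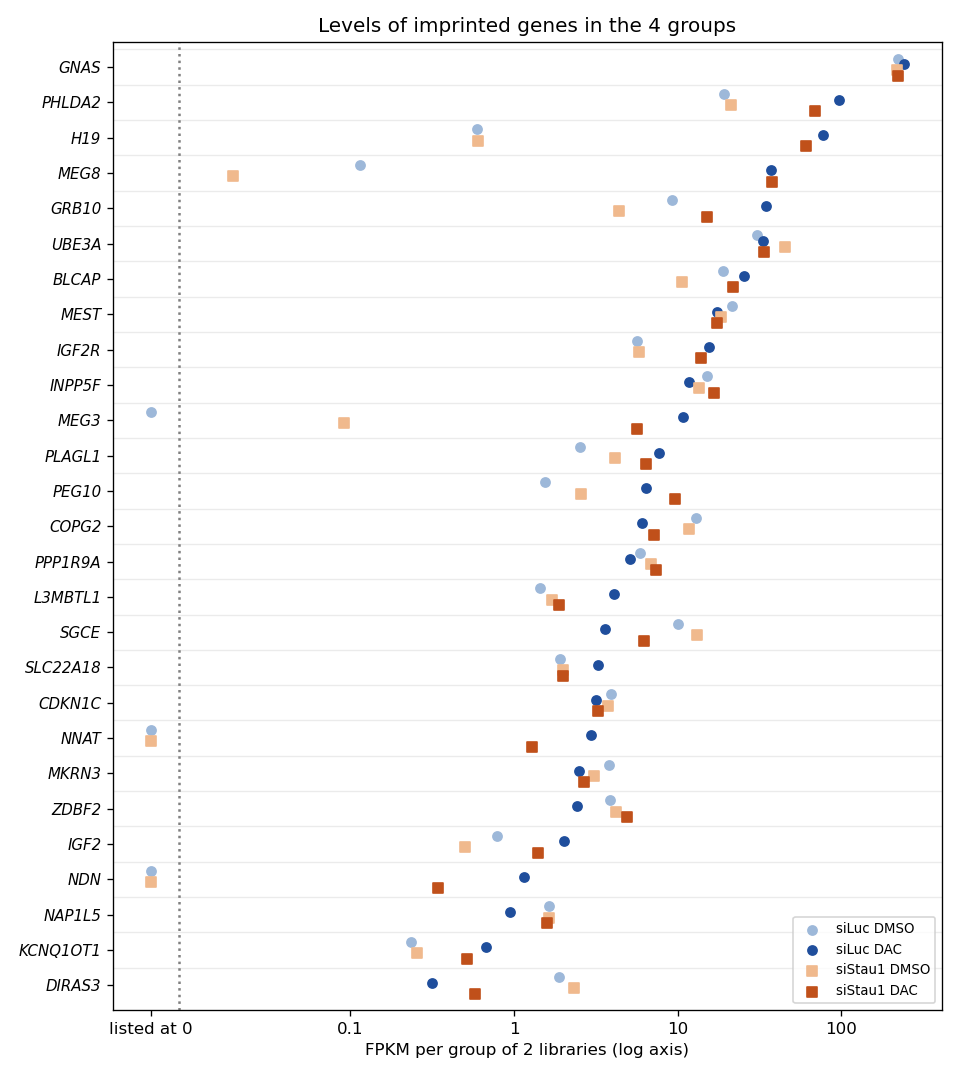
FPKM of 27 imprinted genes in the 4 groups on a log axis, 1 point per group of 2 libraries, with genes ordered by siLuc DAC and values listed at 0 left of the dotted line. Circles are siLuc and squares siStau1, and the darker points are DAC: H19, MEG8, MEG3, NNAT and NDN lie far right of their DMSO points in both arms, while GNAS, MEST and CDKN1C lie close to theirs.

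With DAC in siLuc cells, 8 imprinted genes rose and 1 fell of 30 that could be tested. Those that rose were the noncoding RNAs H19 and KCNQ1OT1, the growth restraint genes PHLDA2, GRB10 and PLAGL1, the receptor gene IGF2R, the retrotransposon-derived gene PEG10 and NDN. SGCE fell. Over all 17504 genes tested, 13.5% were called (8.71% higher and 4.78% lower). With DAC in siStau1 cells, 6 of 27 tested members were called, all 6 higher, against 7.46% of all 16979 genes tested (4.56% higher and 2.89% lower). These were IGF2R, PHLDA2, GRB10 and PEG10 again, with MEG3 and MEG8. The 4 genes called in both arms compare with 5.48% of the 15956 genes tested in both. The 5 members called in siLuc alone and the 2 in siStau1 alone are not shown to differ between the arms, since that difference was not tested.

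Among the noncoding RNAs, H19, the transcript made beside IGF2 on chromosome 11 (1995176 to 2001470, GRCh38), showed the largest step of the called genes in siLuc. It had 0.591 FPKM with DMSO and 77.2 with DAC in siLuc cells, and 0.603 and 60.7 in siStau1 cells. Both DAC groups were thus far above both DMSO groups, by 131-fold in siLuc and 101-fold in siStau1. The q-value in the authors' deposited table was 0.00162 in siLuc, the smallest q-value the table holds, and 0.552 in siStau1, where H19 was not called despite the like size of the step. H19 came after only GNAS and PHLDA2 among the 36 members in siLuc DAC.

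The 2 noncoding RNAs of the DLK1 and MEG3 cluster on chromosome 14 had levels of the same pattern. MEG3 (100779410 to 100861031) was listed at 0 with DMSO and had 10.8 FPKM with DAC in siLuc cells, and had 0.0912 and 5.67 in siStau1 cells. MEG8 (100894770 to 101038859) had 0.115, 37.1, 0.0191 and 37.8 FPKM. Every DMSO value of both RNAs was far below every DAC value. In the authors' deposited table both were called in siStau1 (q-value 0.00162 each) and neither in siLuc (0.402 for MEG3 and 0.555 for MEG8). The annotated MEG8 gene spans 63 other genes on its strand, many of them small RNAs, so its FPKM is uncertain. DLK1, a coding gene of the cluster for a membrane protein related to Notch ligands, stayed between 0 and 0.0653 FPKM and was not tested. Outside the member list, RTL1 and MEG9 of the same cluster reached at most 0.0274 and 0.240 FPKM, and DIO3, a thyroid hormone deiodinase gene, at most 0.883.

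KCNQ1OT1, the noncoding RNA that runs antisense to KCNQ1 and silences genes in cis on the paternal copy, had 0.236 FPKM with DMSO and 0.671 with DAC in siLuc cells, and 0.255 and 0.516 in siStau1 cells. It was called in siLuc, the authors' deposited table giving a q-value of 0.00293, and the response to DAC was not tested in siStau1. Its levels were below 1 FPKM in all groups. GNAS-AS1, antisense to the GNAS locus, had 0.0113, 0.618, 0 and 0.394 FPKM, and HYMAI, which lies within PLAGL1 on the same strand, had 0.281, 0.828, 0.596 and 0.910. Neither was called. Whether the authors' counting used strand is not stated in the sources used here. Of the 36 members, 27 overlap an annotated gene on the other strand, KCNQ1 and KCNQ1OT1, GNAS and GNAS-AS1, and SGCE and PEG10 among them. Their values could include reads of the partner.

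In the same cluster as KCNQ1OT1, PHLDA2, a pleckstrin-domain protein that restrains placental growth, rose in both arms. It had 19.3 FPKM with DMSO and 96.9 with DAC in siLuc cells, and 21.1 and 69.3 in siStau1 cells, and both DAC groups lay above both DMSO groups. The folds were 5.01 in siLuc and 3.29 in siStau1, with q-values of 0.00162 and 0.0101 in the authors' deposited table. After GC centring its log2 ratio went from 2.32 to 1.25 in siLuc and from 1.71 to 0.95 in siStau1. CDKN1C, a cyclin-dependent kinase inhibitor gene a short way along the chromosome, had 3.91, 3.17, 3.77 and 3.28 FPKM and was not called. Its log2 ratio with DAC in siLuc was −0.29, and −1.49 after GC centring, since the median of genes as rich in GC was above 0. The transporter gene SLC22A18 had 1.91, 3.28, 1.997 and 2.01 FPKM and the potassium channel gene KCNQ1 between 0.529 and 0.739, and neither was called. Of the members of this cluster, PHLDA2 and KCNQ1OT1 were thus called in siLuc, and CDKN1C, SLC22A18 and KCNQ1 were not. Whether their responses to DAC differ from each other was not tested.

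IGF2, the fetal growth factor gene beside H19, had 0.790 FPKM with DMSO and 2.01 with DAC in siLuc cells, and 0.5004 and 1.40 in siStau1 cells. Both DAC groups were above both DMSO groups. The authors' deposited table called neither difference, at q-values of 0.0883 and 0.145. The log2 ratio of 1.24 in siLuc went to 0.31 after GC centring. IGF2R (chromosome 6, 159969099 to 160113507), the receptor that takes IGF2 up for breakdown, had 5.63, 15.6, 5.78 and 13.95 FPKM. It rose in both arms, by 2.76-fold in siLuc and 2.41-fold in siStau1, with q-values of 0.00162 and 0.0118 in the authors' deposited table. GC centring left its log2 ratio in siLuc at 1.45 and put that in siStau1 at 1.20, from 1.26. In humans imprinting of IGF2R varies between people, unlike in mice.

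Of the remaining growth restraint genes, GRB10, an adaptor that binds and dampens the insulin and IGF1 receptors, had 9.29 FPKM with DMSO and 34.6 with DAC in siLuc cells, and 4.40 and 15.2 in siStau1 cells. It rose 3.72-fold and 3.46-fold with DAC, the authors' deposited table giving a q-value of 0.00162 in each arm. PLAGL1, a zinc finger transcription factor gene with antiproliferative activity, had 2.54, 7.72, 4.17 and 6.44 FPKM. It rose 3.04-fold in siLuc and was not called in siStau1, where the fold was 1.55 from a higher DMSO level. Its q-values in the authors' deposited table were 0.0126 and 0.653. DIRAS3, a small GTPase gene of the Ras family, had the opposite order, with 1.87, 0.317, 2.34 and 0.575 FPKM. Its level with DAC was lower in both arms, but the authors' deposited table called neither difference, with q-values of 0.614 and 0.740. Its log2 ratio in siLuc, −2.24, was the lowest of the 26 members with at least 1 FPKM, and −2.26 after GC centring.

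**Figure D2:**
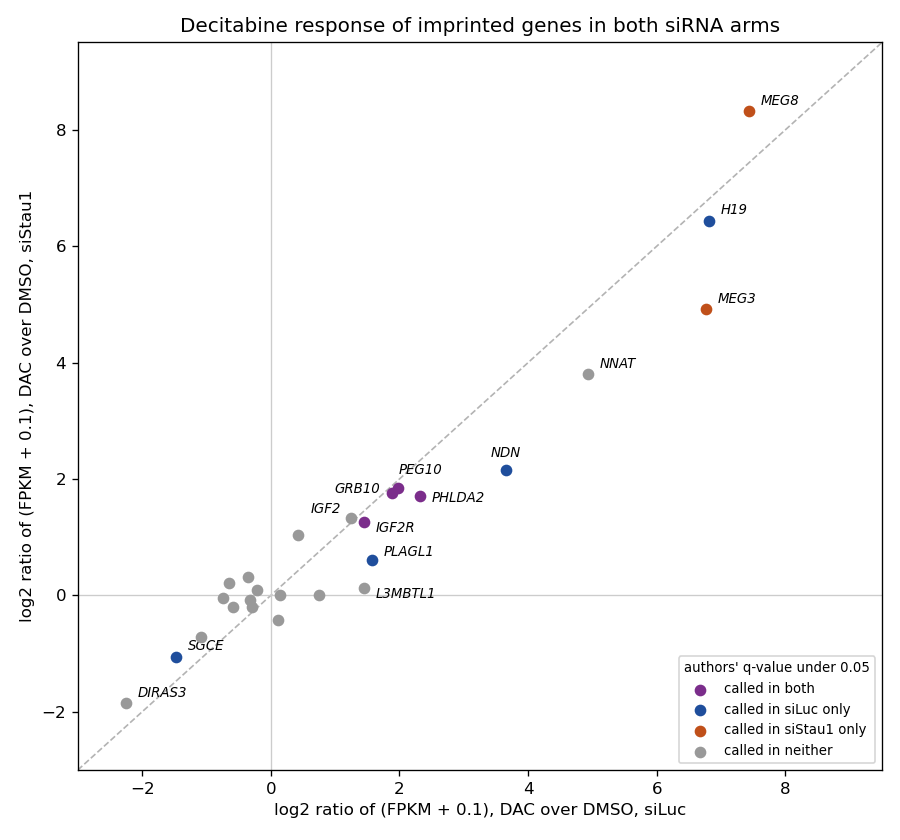
Log2 ratio of DAC over DMSO, with 0.1 FPKM added, in siLuc (horizontal) against siStau1 (vertical) for the 26 imprinted genes with at least 1 FPKM in any group, 1 point per gene, coloured by the authors' calls; the dashed line marks equal ratios. MEG8, H19, MEG3 and NNAT lie far from the origin in both arms, and of the called genes SGCE alone lies below 0.

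Among genes derived from retrotransposons or coding for zinc fingers, PEG10, made from a former retrotransposon gag and pol gene, had 1.55 FPKM with DMSO and 6.41 with DAC in siLuc cells, and 2.58 and 9.58 in siStau1 cells. It rose 4.14-fold and 3.71-fold, with q-values of 0.0285 and 0.0254 in the authors' deposited table. SGCE, the epsilon sarcoglycan gene that starts beside PEG10 on the other strand, had 10.1, 3.58, 13.1 and 6.24 FPKM, and so was lower with DAC in both arms. It fell in siLuc by 1.47 on the log2 scale and was not called in siStau1, with q-values of 0.0404 and 0.2504 in the authors' deposited table. SGCE has a transcript GC content of 34.2%, the lowest of the 36 members, and its ratio was −0.53 after GC centring. PEG10 and SGCE, a pair of neighbours expressed from the paternal copy, thus differed in direction with DAC in siLuc, by the authors' calls. ZDBF2, a zinc finger gene, had 3.87, 2.44, 4.21 and 4.92 FPKM and was not called. PEG3 and ZIM2, which share a start region on chromosome 19, stayed at or below 0.157 FPKM in all groups and were not tested.

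In the Prader-Willi and Angelman region of chromosome 15, NDN was the only member called. NDN, a MAGE family gene, was listed at 0 without DAC and reached 1.15 FPKM with it in siLuc and 0.345 in siStau1. It rose in siLuc (0.00162 as q-value in the authors' deposited table), and the response in siStau1 was not tested. SNRPN and SNURF, which share a transcript, were listed at 0 in every group except siLuc DAC, with 0.319 and 0.114 FPKM there. MAGEL2 reached at most 0.00618 FPKM. MKRN3, a ubiquitin ligase gene, had 3.80 FPKM with DMSO and 2.51 with DAC in siLuc cells, and 3.09 and 2.67 in siStau1 cells, and UBE3A, the Angelman syndrome gene, had 30.8, 33.2, 45.5 and 33.8. Neither was called. SNHG14, the long host RNA that silences UBE3A on the paternal copy in neurons, reached at most 0.191 FPKM.

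NNAT, the neuronatin gene, which lies in an intron of BLCAP on chromosome 20, was likewise listed at 0 without DAC and reached 2.97 FPKM with it in siLuc and 1.29 in siStau1. The authors' deposited table did not call it, with q-values of 0.107 and 0.0847. BLCAP had 18.9 FPKM with DMSO and 25.4 with DAC in siLuc cells, and 10.6 and 21.7 in siStau1 cells. L3MBTL1, a chromatin reader gene, had 1.45, 4.11, 1.71 and 1.88 FPKM, so that siLuc DAC alone stood out. Neither gene was called with DAC in either arm. For L3MBTL1 the authors' deposited table has q-values of 0.162 in siLuc and 0.943 in siStau1. MEST, with 21.7, 17.3, 18.4 and 17.4 FPKM, and GNAS, with 221, 243, 221 and 223, were not called in any comparison. COPG2, a coat protein gene that overlaps MEST, had 12.9, 6.04, 11.8 and 7.16 FPKM. NAP1L5, INPP5F and PPP1R9A had between 0.940 and 16.8 FPKM and no call.

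**Figure D3:**
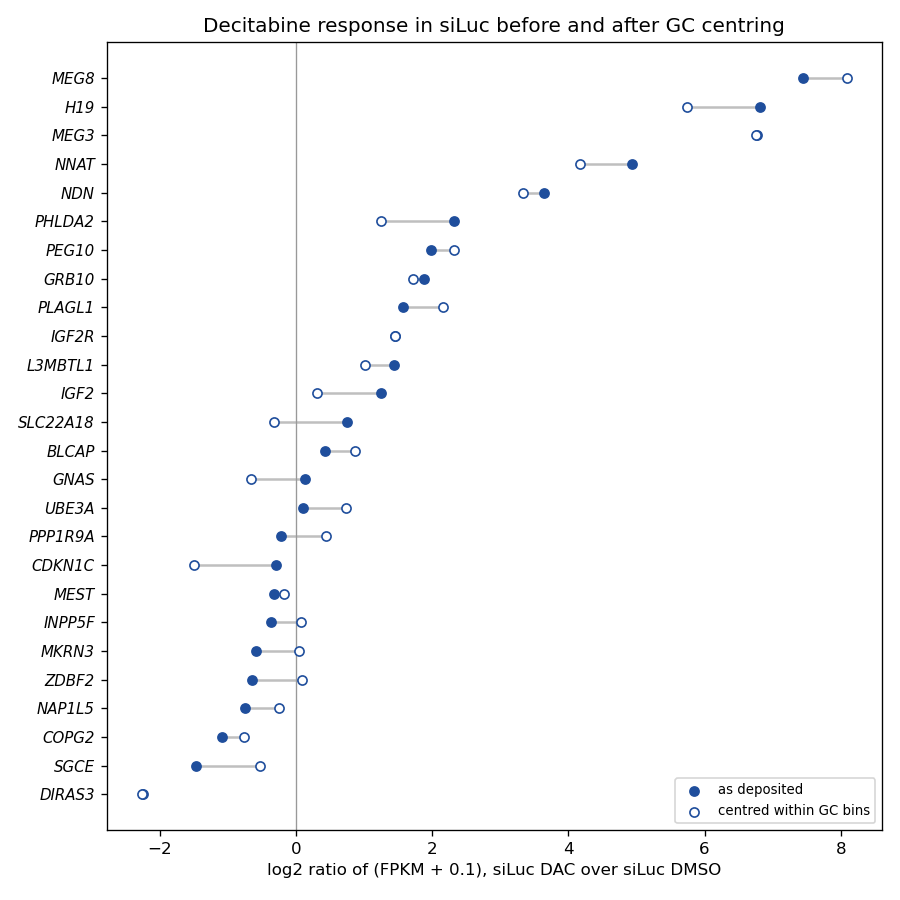
Log2 ratio of siLuc DAC over siLuc DMSO, with 0.1 FPKM added, for the 26 imprinted genes with at least 1 FPKM in any group, as deposited (filled) and with the median of genes in the same of 20 GC bins taken off (open). The sign turned for 6 genes, none of them called, and the 8 called genes shown kept theirs.

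Before and after GC centring, the 9 genes called in siLuc and the 6 called in siStau1 kept the sign of their ratio. Among the 26 members with at least 1 FPKM in any group, the sign in siLuc turned for 6, none of them called: MKRN3, SLC22A18, GNAS, INPP5F, ZDBF2 and PPP1R9A. Of 16 members under 1 FPKM in siLuc DMSO, 6 had at least 1 FPKM in siLuc DAC (H19, IGF2, MEG3, MEG8, NDN and NNAT), against 4.18% of the 45332 genes under 1 FPKM there. In siStau1, 5 of 16 did so, the same genes without NDN, against 3.42% of 45349. In the other direction, DIRAS3 and NAP1L5 went below 1 FPKM with DAC in siLuc and DIRAS3 in siStau1. These counts describe levels and carry no test.

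Over members that reached 1 FPKM in either group, the median log2 ratio with DAC was 0.59 in siLuc (26 members) and 0.22 in siStau1 (25 members). The same medians over all genes were 0.18 and 0.07. After GC centring the members' medians were 0.59 and 0.62, and those of all genes 0.06 and 0.02. Members that passed this limit through the DAC group had to be higher with DAC. With at least 1 FPKM required in both groups, the members' median was 0.12 in siLuc (18 members) and 0.09 in siStau1 (19 members), beside 0.08 and 0.02 over all genes. GC centring put these medians at 0.27 and 0.31 for the members and at 0.004 and −0.009 for all genes. A log2 ratio of at least 1 was found in 12 members in siLuc and 10 in siStau1, against 25.7% and 18.2% of all genes above the same limit, and one of −1 or less in 3 and 2, against 17.1% and 14.2%. By the copy usually expressed, 2 of 8 tested genes of the maternal copy rose in siLuc (H19 and PHLDA2) and 3 of 8 in siStau1 (MEG3, MEG8 and PHLDA2), where 8.71% and 4.56% of all genes tested rose. Of genes of the paternal copy, 4 of 15 tested rose and 1 fell in siLuc, and 1 of 12 rose in siStau1. Of 7 tested genes whose expressed copy was classed as variable, IGF2R and GRB10 rose in both arms. The calls in siLuc were thus found among genes of either parental copy and of variable copy, and the classes were not compared by a test. The classes give the copy expressed where a gene is imprinted, and UBE3A, classed as maternal, is silenced on the paternal copy in neurons. Whether a member is imprinted in these cells was not examined.

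Further imprinted genes outside the member list were called higher only. This list and those that follow, like the members, were chosen with earlier results of these data known. Of 16 that were tested with DAC in siLuc, 6 rose and none fell, and in siStau1 3 of 14 rose, against the 13.5% and 7.46% of all genes called. TFPI2, a protease inhibitor gene, and ZNF331, a zinc finger gene, were listed at 0 without DAC and had 4.42 and 1.36 FPKM with it in siLuc, with q-values of 0.0429 and 0.00162 in the authors' deposited table. CPA4, a carboxypeptidase gene on chromosome 7, went from 14.3 FPKM to 114 in siLuc cells and from 12.4 to 120.2 in siStau1 cells, and GLIS3, a transcription factor gene, from 1.03 to 8.93 in siLuc. RTL8C, a retrotransposon-derived gene, went from 5.86 to 23.4 FPKM in siLuc, a log2 ratio of 1.98 that was 1.05 after GC centring. HM13, a peptidase gene, went from 59.7 to 135 FPKM in siLuc cells and from 41.6 to 93.9 in siStau1 cells. HM13, CPA4 and ZNF331 were called in both arms, with ZNF331 at 0.643 FPKM in siStau1 DAC. The median log2 ratio in siLuc was 1.53 over the 14 genes with at least 1 FPKM in either group, a limit that some passed only through their level with DAC. Over the 11 with at least 1 FPKM in both groups it was 1.01.

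Of 22 genes that write, read or remove imprint marks, 19 were tested and 3 were called with DAC in siLuc, all higher, a share of 15.8% against 13.5% of all genes. ZFP57, the zinc finger protein that keeps methylation at imprinting control regions, was listed at 0 without DAC and reached 8.35 FPKM with DAC in siLuc and 4.85 in siStau1. CTCFL, a germline relative of the insulator protein CTCF, was also listed at 0 without DAC and reached 3.34 and 3.67 FPKM. Both were called in both arms, the authors' deposited table giving a q-value of 0.00162 each. TET3, which oxidises methylated cytosine, went from 1.51 to 3.73 FPKM in siLuc, the authors' deposited table giving a q-value of 0.0234. DNMT1 had 115 FPKM with DMSO and 86.2 with DAC in siLuc cells, and 204 and 79.4 in siStau1 cells, and was not called with DAC in either arm.

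On the IGF axis, 3 of 11 tested genes rose with DAC in siLuc and 2 of 12 in siStau1, where 8.71% and 4.56% of all genes did. IGFBP6, a binding protein with preference for IGF2, had 24.4 FPKM with DMSO and 174 with DAC in siLuc cells, and 9.36 and 78.1 in siStau1 cells. The authors' deposited table called its rise in both arms, at 0.00162 each, and its lower level in siStau1 DAC than in siLuc DAC, at 0.0201. GC centring took the log2 ratio of its rise in siLuc down from 2.83 to 1.63, and that of the knockdown under DAC from −1.16 to −0.51. IGF2BP1, an RNA-binding protein of IGF2 mRNA, went from 0.0973 to 1.55 FPKM in siLuc, and STC2, an inhibitor of an IGF-binding protein protease, from 5.16 to 19.9 in siStau1, the authors' deposited table giving a q-value of 0.01804 for each. Protein-coding neighbours that start within 500 kb of a member and are in no imprinted list were called in 15 of 89 tested cases in siLuc, 10 higher and 5 lower. This is 16.9%, against 13.5% of all genes, and in siStau1 it was 3 of 80 (3.75%), against 7.46%. The median log2 ratio of these neighbours was −0.13 in siLuc, and −0.15 over the 75 with at least 1 FPKM in both groups, where that of the members was 0.12. After GC centring the neighbours' medians were near 0, at 0.006 and 0.001, and that of the members was 0.27. Among the neighbours, DEPDC1 near DIRAS3 went from 35.5 to 5.74 FPKM in siLuc and TSSC4, in the KCNQ1 cluster, from 15.7 to 59.8. GC centring took the log2 ratio of DEPDC1 from −2.61 to −1.66 and that of TSSC4 from 1.92 to 0.72.

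**Figure D4:**
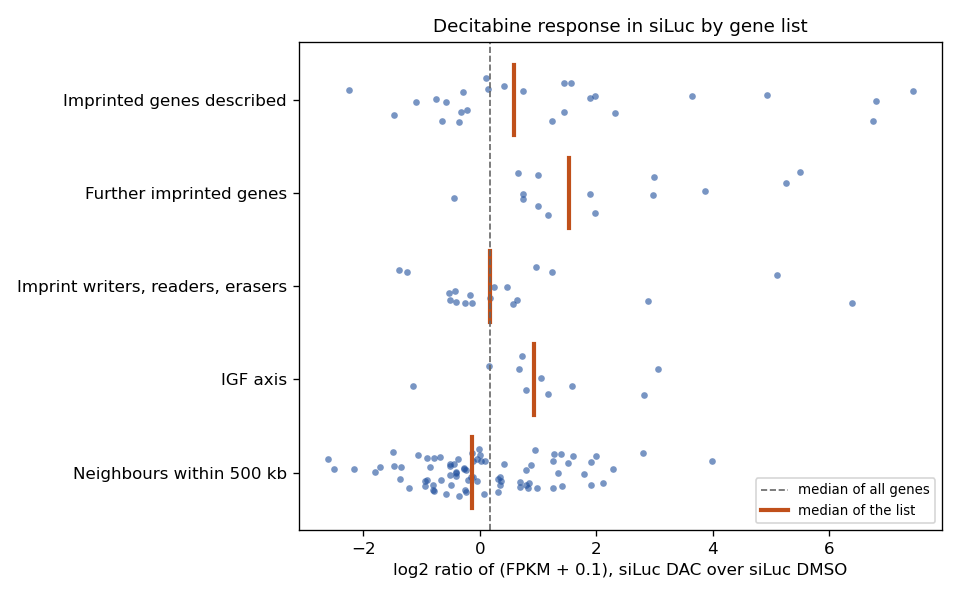
Log2 ratio of siLuc DAC over siLuc DMSO, with 0.1 FPKM added, for genes with at least 1 FPKM in either group, 1 point per gene, in the member list, 3 further lists and the neighbours; points are spread vertically only for legibility. Orange bars are list medians, from −0.13 for neighbours to 1.53 for further imprinted genes, and the dashed line is the median of all genes, 0.18.

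The knockdown without DAC left every tested member uncalled. Of 24 members tested in siStau1 DMSO against siLuc DMSO, 0 were called in the authors' Cuffdiff test, 0 with adjustment within this comparison, and 2 had an unadjusted p under 0.05, against 0.799% of 15893 genes called (0.333% higher and 0.466% lower). The 2 were GRB10, which had 9.29 FPKM in siLuc and 4.40 in siStau1, and BLCAP, with 18.9 and 10.6. Their q-values in the authors' deposited table were 0.106 and 0.196. A log2 ratio of −1 or less was found in GRB10 alone of 20 members and one of at least 1 in none, against 6.59% and 6.41% of all genes. The median log2 ratio was 0.05 over these 20 members with at least 1 FPKM, and −0.02 over all such genes. H19 had 0.591 and 0.603 FPKM and GNAS 221 in each. The 12 members that were not tested had low levels in both groups, so this comparison cannot show whether their levels changed.

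With DAC, 1 of 30 tested members was called between siStau1 and siLuc, against 0.904% of 17263 genes (0.434% higher and 0.469% lower). GRB10 stood at 34.6 FPKM in siLuc cells with DAC and at 15.2 in siStau1 cells with DAC, a fall by 1.18 on the log2 scale, the authors' deposited table giving a q-value of 0.0126. The q-values there are adjusted over all 6 comparisons of the groups, and within this comparison alone 0 members passed, with 2 at an unadjusted p under 0.05. GRB10 was lower in siStau1 under both treatments, by log2 ratios of −1.06 and −1.18. ZDBF2, the other of the 2, had 2.44 FPKM in siLuc cells with DAC and 4.92 in siStau1 cells with DAC (q-value 0.252 in the authors' deposited table). Of the genes that came up with DAC, siStau1 DAC stood at 60.7 FPKM for H19 against 77.2 in siLuc, 5.67 against 10.8 for MEG3, 37.8 against 37.1 for MEG8 and 1.29 against 2.97 for NNAT, and none of these differences was called. A log2 ratio of −1 or less was found in 4 of 25 members (GRB10, NDN, NNAT and L3MBTL1) and one of at least 1 in none, against 6.81% and 4.72% of all genes. Of these 4, GRB10 alone was called. NDN reached 1 FPKM only in siLuc DAC (1.15) and so had to be lower in siStau1 DAC. NAP1L5 reached it only in siStau1 DAC (1.59) and so had to be higher there. The median log2 ratio over 25 members was −0.13, the same as over all genes with at least 1 FPKM in either group, and −0.01 after GC centring.

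**Figure D5:**
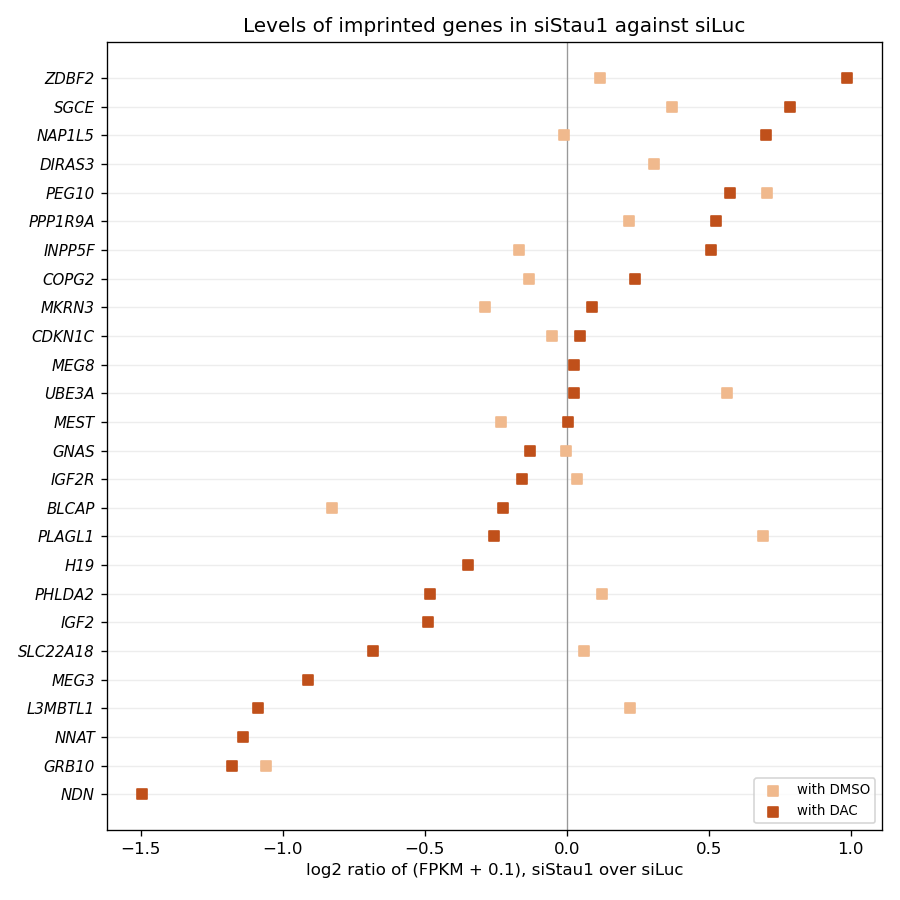
Log2 ratio of siStau1 over siLuc, with 0.1 FPKM added, in DMSO (light) and in DAC (dark) for the imprinted genes with at least 1 FPKM in either of the 2 groups compared. The points lie between −1.497 for NDN and 0.99 for ZDBF2, and GRB10 alone lies below −1 under both treatments.

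The response to DAC was set side by side in the 2 arms, which use different DMSO and DAC groups. Of 26 members with at least 1 FPKM, 22 had the same sign of the log2 ratio in both, and the 4 others were UBE3A, INPP5F, ZDBF2 and PPP1R9A. The difference of the ratios, siStau1 less siLuc, was −0.02 in the median over these members, which go both ways, and −0.03 over all 16046 genes with at least 1 FPKM in any group. The ratio was smaller in size in siStau1 in 22 of the 26 members, against 62.3% of all these genes, and after GC centring in 17, against 58.2%. The difference ranged from −1.85 for MEG3, −1.497 for NDN and −1.31 for L3MBTL1 to 0.88 for MEG8 and 0.87 for ZDBF2. No test of this difference can be made with 1 value per group. The DAC and knockdown comparisons share groups with each other, so their ratios for a gene are not independent.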

How the data were processed

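Total RNA of HCT116 cells was sequenced in 8 libraries, 2 per group. For it the authors deposited FPKM values, 1 per gene and group, with p-values and q-values for 6 comparisons, in the Cuffdiff layout per the file headers. The other value column of that deposited table is FPKM as well. The submitters' processing notes list HISAT2 2.1.0, Cuffdiff 2.2.1 and the build hg38, with no role given. The deposited q-value was recomputed as the Benjamini-Hochberg value over all 102180 tests. In 1 gene, not a member, a group had 2 different values. Symbols were matched exactly, and positions, strands and transcript GC content came from GENCODE release 29 (GRCh38), which holds all 58699 identifiers. Log2 ratios used a pseudocount of 0.1 FPKM. GC centring used 20 bins of protein-coding genes that reached 1 FPKM in each of the groups compared, and was tested on simulated data. Tools were Python 3.11.15 and pandas 2.3.3. With no value per library, no limma fit could be made. The 3 J2 libraries, deposited by repeat element without gene names, were not analysed here. Members and lists were chosen with earlier results of these data known. Members with at least 1 FPKM in any group, or called, are given in full, and genes of other lists where called with at least 1 FPKM, at most 5 per list and comparison.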

Additional observations from a re-analysis of the deposited data

How the results depend on the processing

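The number of members called with DAC in siLuc was 9 and lay between 6 and 9 under a q-value limit of 0.01, adjustment within the comparison and a limit of 1 FPKM. In siStau1 it went from 6 to 3 at a q-value limit of 0.01. The single call for siStau1 in DAC, GRB10, was lost (0 members) at a q-value limit of 0.01 and with adjustment within the comparison. The median log2 ratio with DAC in siLuc, 0.59, was 0.92 over all 36 members and 0.12 over those with at least 1 FPKM in both groups, which leaves out the members that came up from near 0. In siStau1, 0.22 became 0.62 with GC centring. With 1 FPKM required in both groups, an alternative chosen after seeing the data for these lists, the median in siLuc of the further imprinted genes went from 1.53 to 1.01, and that of the neighbours in siStau1 turned from 0.014 to −0.023. The difference of the DAC ratio between the arms turned from −0.02 to 0.11 with GC centring, a size near 0 in either case. Pseudocounts of 0.01 and 1 and centring on all genes moved no median by 0.25 or more, and each called member kept its sign under all 4 settings of scale. No paired analysis was possible because the table gives 1 value per group and no value per library. For the same reason no replicate could be left out.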
